A study of Mus musculus with 24 samples.

Results

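MicroRNAs (miRNAs) were compared between 2 ways of preparing exosome-enriched fractions (EEFs) from the hippocampus of control mice. One preparation pelleted the fraction by ultracentrifugation (UC), and the other precipitated it with a commercial exosome precipitation solution (kit). The members were the 12 control libraries of the series, 6 UC and 6 kit, of 24 small RNA libraries in all. They fell into 4 groups of 3 libraries, UC control 24 h, UC control 2 w, Kit control 24 h and Kit control 2 w. All came from male C57BL/6 mice (C57BL/6OlaHsd in the methods of the study) aged 6 to 9 weeks that received 0.2 µl of phosphate-buffered saline (PBS) into the basolateral amygdala and were perfused with PBS 24 h or 2 weeks later. The 12 kainic acid (KA) libraries, used here only to see whether a method difference recurred, came from mice given 0.3 µg KA in the same volume. A UC library pooled 5 hippocampi dissociated in Hibernate A, and a kit library pooled 4 hippocampi dissociated in PBS. Both preparations passed through mesh and syringe filters and were treated with RNase A before extraction. The UC and kit sets were prepared separately, so "UC" and "kit" below stand together for the method, the medium, the size of the pool and the set of libraries, which cannot be told apart.

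Mature miRNAs are cut from either arm of a hairpin precursor, named 5p and 3p, and guide silencing proteins to messenger RNAs mainly through their seed, bases 2 to 8 from the 5′ end. Many are made chiefly by one cell type of the brain: miR-124, miR-9, miR-128 and miR-218 in neurons, miR-219 and miR-338 in oligodendrocytes, miR-126 in endothelial cells, miR-143 and miR-145 in smooth muscle and pericytes, miR-451 and miR-144 in erythroid cells and miR-204 in the choroid plexus. Such miRNAs served here to describe which cells' RNA each preparation favoured.

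UC controls held 85436 to 169639 miRNA reads and kit controls 154884 to 423895, so that 1 read stood for 5.89 to 11.7 CPM (read counts scaled to a common library total) in a UC library and 2.36 to 6.46 in a kit library. UC libraries listed 440 to 479 miRNA names and kit libraries 491 to 570. Of 927 names with a read in any control library, 466 had at least 1 read in 6 or more of the 12 and were tested, and these held 99.943% of the reads. Replicate libraries were not copies of each other, with a chi-square per degree of freedom of 12.8 to 55.6 within groups. On the first principal component, which carried 40.8% of the variance, UC libraries lay at -18.35 to -8.46 and kit libraries at 11.8 to 14.7. Neuronal miR-124-3p stood at a median of 6198 CPM in UC and 4916 CPM in kit libraries, and the liver miRNA miR-122-5p had 2 reads in the 12 libraries.

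The mature sequences of the miRNAs on which the comparison turned are printed from RefSeq (GRCm38.p6) with the seed in capitals. The first 6 were among the miRNAs most favoured by the kit and the next 6 among those most favoured by UC.

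let-7f-5p: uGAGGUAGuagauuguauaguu
miR-98-5p: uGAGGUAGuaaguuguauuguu
miR-381-3p: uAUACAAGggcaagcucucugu
miR-410-3p: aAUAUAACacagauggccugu
miR-369-5p: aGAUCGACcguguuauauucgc
miR-361-5p: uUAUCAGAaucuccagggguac
miR-296-3p: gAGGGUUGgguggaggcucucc
miR-770-3p: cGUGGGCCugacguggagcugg
miR-298-5p: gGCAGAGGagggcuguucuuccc
miR-760-3p: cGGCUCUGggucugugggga
miR-664-5p: cUGGCUGGggaaaaugacugg
miR-1224-5p: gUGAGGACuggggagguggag

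Only let-7f-5p and miR-98-5p share a seed among these 12. let-7f-5p is encoded both at chr13:48537889-48537910 (minus strand, in an exon of the long non-coding RNA 6720427I07Rik) and at chrX:151912353-151912374 (plus strand, in an intron of Huwe1), and miR-98-5p lies in an intron of Huwe1 as well, at chrX:151913229-151913250. On chromosome 12, miR-369-5p (chr12:109743431-109743452) and miR-410-3p (chr12:109743764-109743784) lie in exons of the long non-coding RNA Mirg and miR-770-3p (chr12:109563744-109563765) in an exon of Meg3, all on the plus strand of one imprinted locus. miR-296-3p (chr2:174267058-174267079) and miR-298-5p (chr2:174267553-174267575) are neighbours on the minus strand of chromosome 2 with no other annotated gene across them. miR-361-5p (chrX:113074867-113074888, minus strand) lies in an intron of Chm, miR-664-5p (chr1:185242975-185242995, plus strand) in an intron of Rab3gap2 where it overlaps the small nucleolar RNA Snora36b, and miR-1224-5p (chr16:20604452-20604472, plus strand) in an intron of Vwa5b2. The printed sets are examples from the 12 largest differences in each direction, and the GC ranges of the full sets overlapped. Of the 12 kit-favoured miRNAs, 9 had a sequence, with 31.8 to 60.9% G and C, miR-330-3p and miR-1195 being the highest. Of the 12 UC-favoured ones, 10 had a sequence, with 47.8 to 79% G and C, miR-574-5p and miR-6986-5p being the lowest.

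Across the 466 miRNAs, 225 (48.3%) differed between the preparations at an adjusted p under 0.05. Of these, 116 (24.9% of those tested) were higher with the kit and 109 (23.4%) higher with UC. The difference was at least 2-fold for 183 of the 225 and at least 4-fold for 61. In 117 miRNAs (25.1%) no UC library overlapped any kit library, with all kit libraries above in 67 (14.4%) and all UC libraries above in 50 (10.7%). The median log2 difference over all 466 was 0.07 under trimmed mean of M-values (TMM) scaling, which itself centres most miRNAs near 0. Scaling to 2 reference miRNAs, miR-25-3p and miR-92b-3p, moved that median to -0.36 and the split to 67 higher with the kit and 143 higher with UC. The study used these 2 as references for its Taqman assays of individual miRNAs and scaled its sequencing counts by TMM. miR-25-3p itself differed by -0.16 (SE 0.27, adjusted p = 0.638) and miR-92b-3p by 0.92 (SE 0.25, adjusted p = 0.00253), kit minus UC.

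Among called miRNAs with at least 10 reads per library on average and no overlap, the largest kit-favoured difference belonged to miR-126a-5p, the 5p arm of the endothelial hairpin in Egfl7. It ranged from 104 to 402 CPM in UC controls (median 147) and from 1637 to 2391 CPM in kit controls (median 2063). Every kit library lay above every UC library, and the log2 difference was 3.47 (SE 0.25, adjusted p = 1.44e-14). let-7f-5p, a member of the let-7 family that restrains growth genes, rose from 4996 to 16840 CPM (median 10130) in UC controls to 44330 to 79250 CPM (median 49750) in kit controls, a log2 difference of 2.50 (SE 0.23, adjusted p = 1.22e-11), and moved from rank 16 to rank 4. miR-361-5p had no read in the 3 UC libraries of 24 h and 2 to 10 reads in those of 2 weeks, against 13 to 123 reads in each kit library. Its fitted log2 difference was 3.40 (SE 0.48, adjusted p = 1.84e-07), a value that leans on very few UC reads.

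Several of the other kit-favoured miRNAs come from the neuronal miR-379 to miR-410 cluster of the imprinted locus. miR-369-5p lay between 50.2 and 97.8 CPM (median 64.3) in UC and between 327.9 and 785 CPM (median 545.5) in kit controls (log2 difference 2.92, SE 0.29, adjusted p = 7.17e-11). miR-381-3p went from a median of 231.5 CPM (158.5 to 341) to 1352 CPM (969 to 1722), and miR-410-3p, one of the most abundant of the cluster, from 2609 CPM (1850 to 4359) to 10730 CPM (4793 to 16100). miR-154-5p was at a median of 109 CPM in UC and 516 CPM in kit controls. The log2 differences of these 4 lay between 1.98 and 2.92. Size and lack of overlap were conditions for being among the 12, so neither describes the cluster. Of its 48 tested members, 18 were called higher with the kit and 11 higher with UC. The remaining names among the 12 largest were miR-598-3p (log2 difference 2.65), miR-23b-3p (2.08), miR-330-3p (2.02), miR-98-5p (1.97) and miR-1195 (2.70). For miR-1195, 96.8% of control reads were listed with changed or added end bases, so these reads may not be the annotated mature form.

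**Figure D1:**
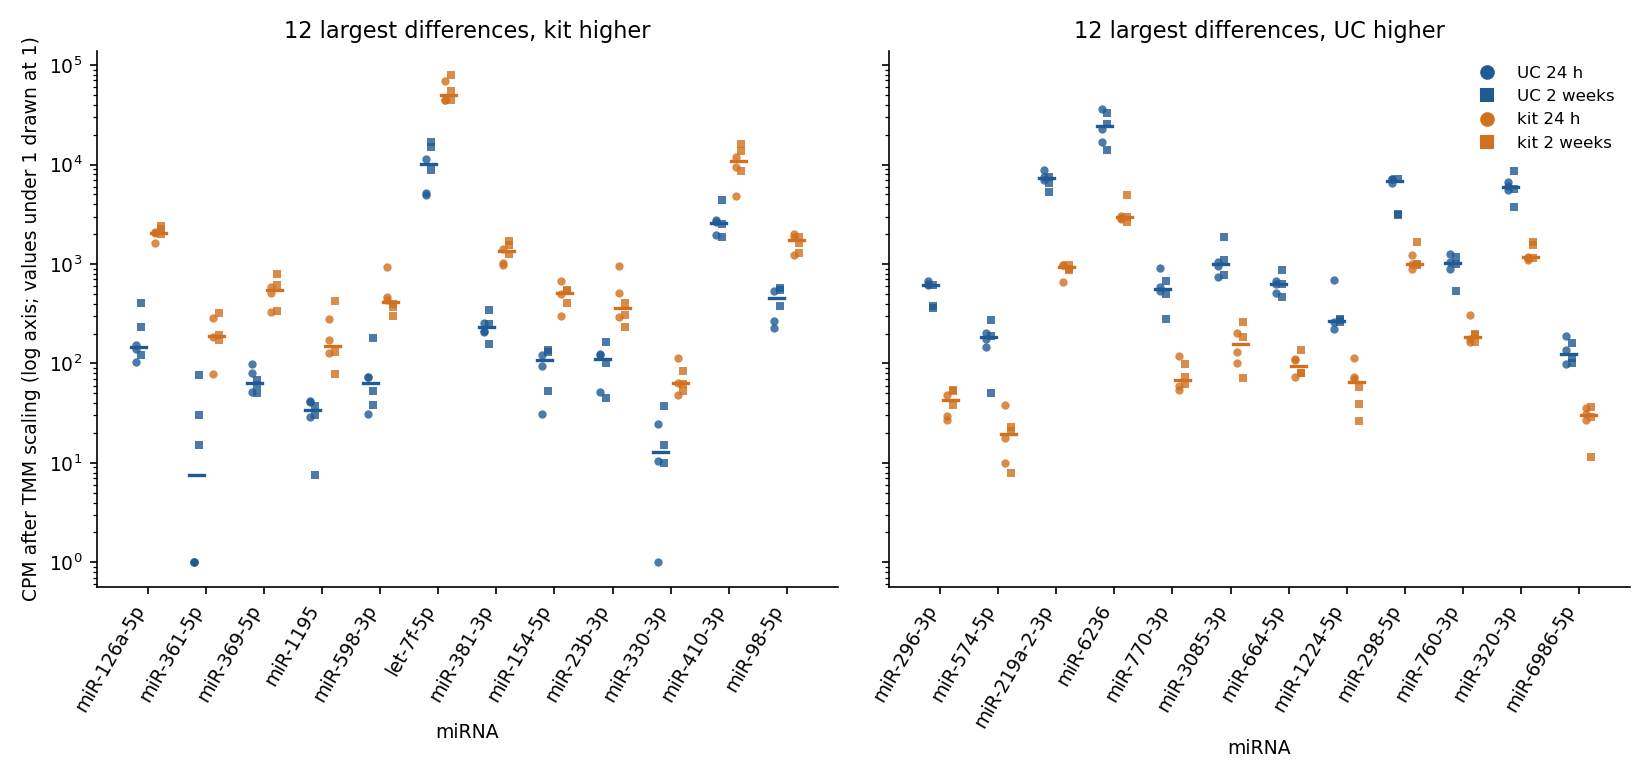
CPM after TMM scaling (log axis) of the 12 miRNAs with the largest log2 difference in each direction among those called, with at least 10 reads per library on average and no overlap. Blue stands for UC and orange for kit, circles for 24 h and squares for 2 weeks, each point is 1 library and bars are medians; values under 1 are drawn at 1. miR-126a-5p rises from a median of 147 to 2063 CPM with the kit, and miR-296-3p falls from 621 to 43.3 CPM.

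In the UC direction, the largest difference under the same limit of 10 reads per library was that of miR-296-3p, whose hairpin sits beside miR-298 in an imprinted region of chromosome 2. It ranged from 362 to 672 CPM (median 621) in UC and from 26.8 to 54.3 CPM (median 43.3) in kit controls (log2 difference -3.66, SE 0.28, adjusted p = 8.12e-14). Its neighbour miR-298-5p stood at 3133 to 7167 CPM (median 6850) against 882 to 1670 CPM (median 1007), with a log2 difference of -2.31 (SE 0.23, adjusted p = 5.9e-11). Both were therefore favoured by UC. Their libraries did not overlap between preparations, but lack of overlap was a condition for listing them here and is no separate result. The smallest adjusted p of all was that of miR-219a-2-3p, an oligodendrocyte miRNA that drives their differentiation: 5313 to 8749 CPM (median 7243) in UC and 664 to 986 CPM (median 926) in kit controls, a log2 difference of -2.98 (SE 0.20, adjusted p = 1.56e-15).

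miR-6236 was the fifth most abundant name in UC controls, at 14050 to 36150 CPM (median 24130), and stood at 2672 to 4990 CPM (median 2935) in kit controls (log2 difference -2.94, SE 0.22, adjusted p = 5.95e-14). As 94.7% of its control reads carried changed or added end bases, the name may stand for fragments of other RNA. miR-3085-3p (log2 difference -2.74) and miR-760-3p (-2.30) had 80.7% and 54% of such reads. miR-770-3p of the imprinted chromosome 12 locus fell from a median of 567 CPM in UC to 67.5 CPM in kit controls (log2 difference -2.87). miR-574-5p (-3.15), miR-664-5p (-2.69), miR-1224-5p (-2.43), miR-320-3p (-2.23) and miR-6986-5p (-2.20) completed the 12. miR-320-3p, whose precursor is made without the Microprocessor, was the most abundant of these 5, with medians of 5903 and 1166 CPM.

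The same 3 miRNAs led both preparations, but in another order. miR-127-3p, an imprinted miRNA transcribed antisense to Rtl1 (chr12:109592888-109592909, plus strand), took 18.7 to 32.4% of the reads of a UC library (median 28%) and 6.99 to 12.3% of a kit library (median 11.5%). The mean difference was -16 percentage points (exact permutation test within time, two-sided, p = 0.005, the smallest the 400 splits can give), and no library overlapped. miR-181a-5p took 15.4 to 20.7% of UC and 15.8 to 20.9% of kit reads, and its log2 difference was 0.01 (SE 0.17, adjusted p = 0.982). miR-22-3p took 10.3 to 14.7% of UC and 5.53 to 13% of kit reads. Its log2 difference of -0.50 (SE 0.20, adjusted p = 0.0398) passed the threshold but the libraries overlapped, and the call was lost without the UC 2 w replicate 2 (-0.35, adjusted p = 0.149), UC 24 h replicate 3 (-0.42, adjusted p = 0.06) or Kit 24 h replicate 3 (-0.50, adjusted p = 0.0602). Together the 3 most abundant names of a library held 48.2 to 62.7% of UC and 35.2 to 41% of kit reads (p = 0.005 by the same exact test). Among the next ranks, miR-26a-5p (UC rank 11, kit rank 5) and miR-9-5p (ranks 7 and 8) were higher with the kit, by 1.57 (SE 0.19, adjusted p = 7.55e-09) and 0.73 (SE 0.17, adjusted p = 0.000594) on the log2 scale. miR-541-5p (-0.05, SE 0.18, adjusted p = 0.844) and miR-30a-5p (0.39, SE 0.17, adjusted p = 0.0609) did not pass the test. miR-30a-5p was called higher with the kit by DESeq2 (0.34, adjusted p = 0.0288) and limma-voom (0.40, adjusted p = 0.0356).

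The base composition of the mature miRNA moved with the difference between preparations. A sequence was at hand for 411 of the 466 miRNAs (88.2%). Over these 411, the log2 difference and the GC content had a Pearson correlation of -0.51 and a Spearman correlation of -0.52. The miRNAs are not independent points, since all were read in the same 12 libraries, and no p is given. G alone gave -0.53 and C alone 0.02, while A and U gave 0.30 and 0.28. Among the 203 miRNAs with at least 10 reads per library on average the correlation with GC was -0.55, and among 335 miRNAs without frequent altered ends it was -0.50. For mean abundance the Pearson correlation was 0.03 over 466 miRNAs.

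The counts of calls followed the same gradient. Of 29 miRNAs under 35% GC, 18 were higher with the kit and 0 higher with UC, and from 35 to 40% GC the numbers were 23 and 4 of 44. Between 45 and 50% GC, 24 of 84 were higher with the kit and 15 with UC. Between 55 and 60% GC 1 of 47 was higher with the kit and 18 with UC, and at 60% GC or more 5 and 37 of 75. The median log2 difference fell from 1.29 in the lowest to -1.30 in the highest of these ranges. Kit-favoured miRNAs had a median GC content of 42.1% (103 with a sequence), UC-favoured ones 57.1% (99) and uncalled ones 47.6% (209). Their median share of G was 21.7%, 36.4% and 26.1%, while all 3 classes had a median length of 22 bases.

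**Figure D2:**
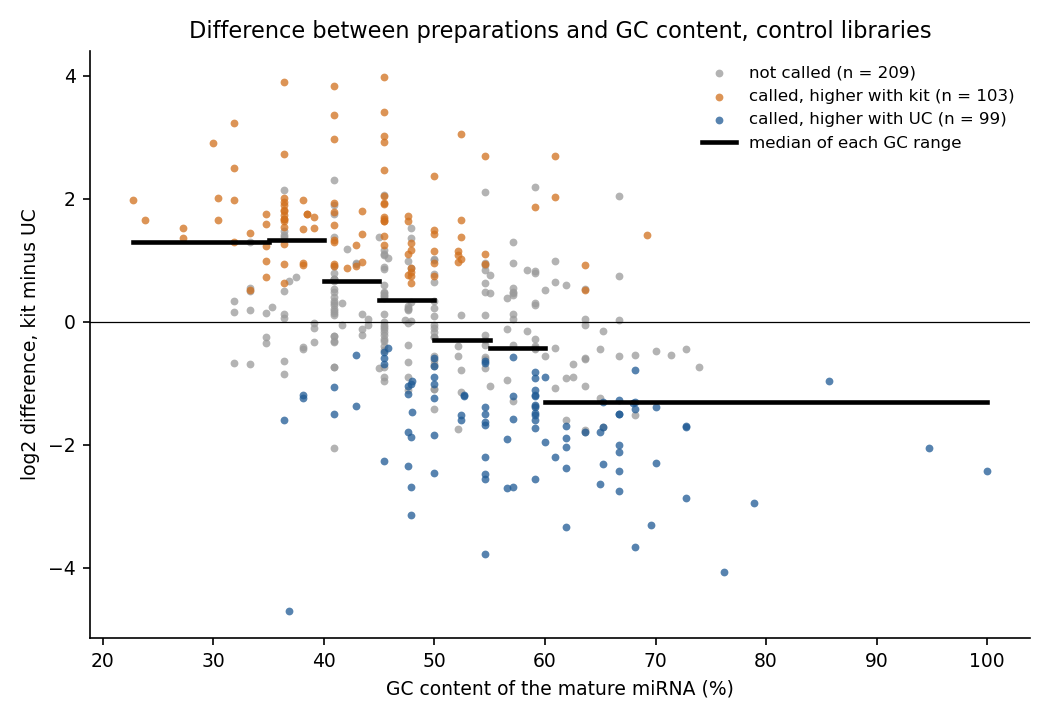
Log2 difference (kit minus UC) of 411 miRNAs against the GC content of the mature sequence in percent. Orange points are called higher with the kit (103), blue points higher with UC (99), grey points are not called (209), and black bars are medians within GC ranges, which fall from 1.29 under 35% to -1.30 at 60% or more.

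Weighted by reads, the mean GC content of a UC library was 49.3 to 52.4% and that of a kit library 45.3 to 46.5%. The gap stayed when the 3 most abundant miRNAs were left out, at 46.5 to 50.2% against 42.7 to 43.4%, a setting chosen after the data were seen. Reads from miRNAs under 40% GC made up 4.29 to 8.44% of UC and 14.3 to 17% of kit libraries. Their part in the differences of any single miRNA or list below was not tested.

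The 5p arms of the let-7 family share the seed GAGGUAG and differ at few other positions, so that near-identical miRNAs could be set side by side. Of the 9 arms, 7 are printed here.

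let-7a-5p: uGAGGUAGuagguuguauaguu
let-7b-5p: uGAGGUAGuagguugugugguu
let-7c-5p: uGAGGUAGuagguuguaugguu
let-7d-5p: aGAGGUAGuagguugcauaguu
let-7e-5p: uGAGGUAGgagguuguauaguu
let-7g-5p: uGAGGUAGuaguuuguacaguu
let-7i-5p: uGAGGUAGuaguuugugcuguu

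let-7f-5p and miR-98-5p are printed above. Counted from 1 at the 5′ end and against let-7a-5p, let-7f-5p differs by G12A, let-7c-5p by A19G, let-7e-5p by U9G, let-7b-5p by A17G and A19G, let-7g-5p by G12U and U18C, let-7d-5p by U1A and U16C, miR-98-5p by G11A and A19U, and let-7i-5p by G12U, A17G, U18C and A19U. let-7a-5p itself, with 8 G, lay between 1374 and 4027 CPM (median 2455) in UC and between 6967 and 11550 CPM (median 8294) in kit controls, a log2 difference of 1.74 (SE 0.21, adjusted p = 9.83e-09). let-7f-5p, with 1 G fewer, differed by 2.50 as given above. let-7c-5p, with 1 G more, went from a median of 14880 CPM (10490 to 21230) to 27940 CPM (25290 to 30300), a log2 difference of 0.90 (SE 0.18, adjusted p = 8.47e-05), and let-7e-5p, also with 9 G, differed by 1.33 (SE 0.22, adjusted p = 2.42e-06). let-7b-5p, with 10 G, stood at 3560 to 7414 CPM (median 4521) in UC and 3302 to 4106 CPM (median 3796) in kit controls and did not pass the test (-0.39, SE 0.19, adjusted p = 0.0879).

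let-7g-5p and miR-98-5p, with 7 G each, differed by 1.89 and 1.97, and let-7d-5p, with 8 G, by 1.94, each with all kit libraries above all UC libraries. let-7d-5p thus lay above let-7g-5p although it holds 1 G more. let-7i-5p, with 8 G, lay below the arms with 9 G, at 12650 to 20030 CPM (median 15560) in UC and 18180 to 21590 CPM (median 19320) in kit controls (0.34, SE 0.17, adjusted p = 0.0934), although DESeq2 called it higher with the kit (0.29, adjusted p = 0.0333). Under reference scaling let-7c-5p was not called (0.48). The order let-7f, let-7a, let-7c, let-7b recurred at 24 h (2.87, 2.01, 1.14 and -0.32), at 2 weeks (2.13, 1.46, 0.66 and -0.46) and in KA libraries (2.01, 1.22, 0.61 and -0.22). How reads matching more than 1 of these near-identical arms were assigned is not given in the sources used here, so the value of each is uncertain to that extent.

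**Figure D3:**
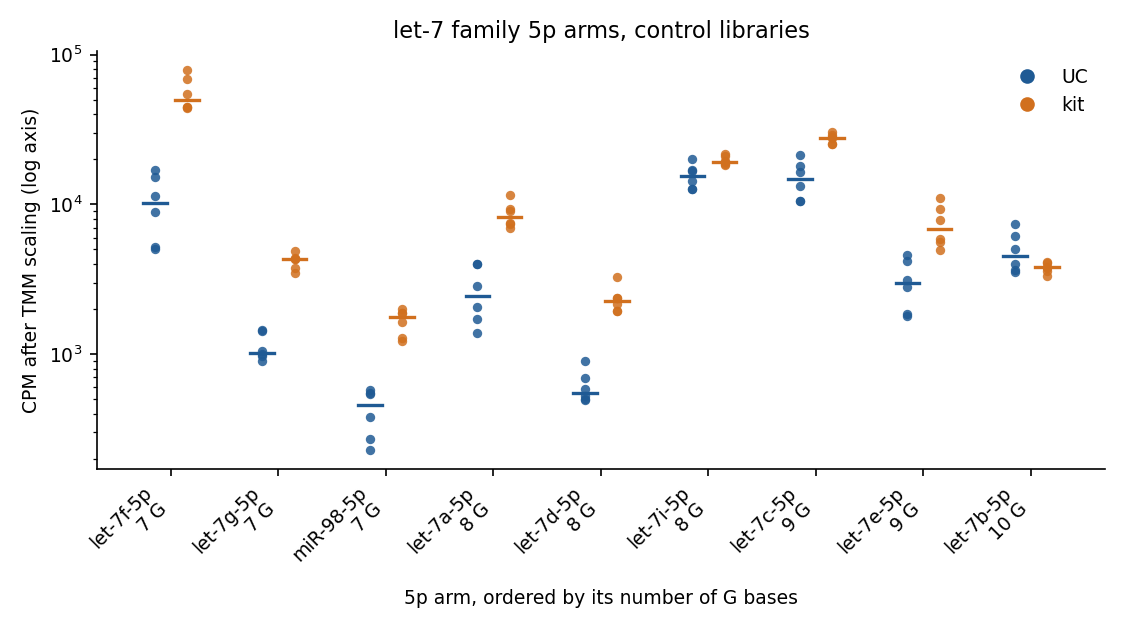
CPM after TMM scaling (log axis) of the 9 let-7 family 5p arms in 6 UC (blue) and 6 kit (orange) controls, ordered by the number of G in the arm, with medians as bars. The kit libraries lie above the UC libraries for let-7f-5p with 7 G and below or among them for let-7b-5p with 10 G.

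Both arms of a hairpin are cut from 1 precursor, so the ratio of 5p to 3p reads within a library does not depend on scaling. Of 94 hairpins with both arms tested, the ratio differed between preparations in 50 (53.2%), with the 5p arm relatively higher with the kit in 28 (29.8%) and relatively lower in 22 (23.4%; limma, adjusted p). In 12 hairpins 1 arm was called higher with the kit and the other higher with UC, and in 18 both arms were called the same way. The base composition differs between the arms of the hairpins shown here, each of which had arms called in opposite directions.

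let-7g-3p: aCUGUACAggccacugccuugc
miR-204-5p: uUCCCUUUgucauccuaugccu
miR-204-3p: gCUGGGAAggcaaagggacgu
miR-21a-5p: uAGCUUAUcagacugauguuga
miR-21a-3p: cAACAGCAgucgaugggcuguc
miR-664-3p: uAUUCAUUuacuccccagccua
miR-361-3p: uCCCCCAGgugugauucugauuugu

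miR-21a, the inflammation-linked miRNA in the Vmp1 locus (5p arm at chr11:86584120-86584141, minus strand), had the best covered of these contrasts. Its 5p arm, with 36.4% GC, ranged from 1915 to 3646 CPM (median 2593) in UC and 2557 to 5226 CPM (median 4351) in kit controls (log2 difference 0.63, SE 0.19, adjusted p = 0.00702), and its 3p arm, with 59.1% GC, from 67.9 to 204 CPM (median 146) and 33.4 to 80.5 CPM (median 41.9; -1.59, SE 0.32, adjusted p = 6.17e-05). Each arm overlapped between preparations, yet the log2 ratio of the arms rose from a median of 4.14 to 6.32 (difference 2.21, SE 0.30, adjusted p = 7.4e-05). let-7g gave the same contrast, its 5p arm (36.4% GC) at 1.89 and its 3p arm (59.1% GC) at -1.11 (SE 0.40, adjusted p = 0.0188), and so did miR-204 of the Trpm3 intron, at 1.64 (SE 0.23, adjusted p = 1.89e-07) for the 5p arm (45.5% GC) and -1.69 (SE 0.47, adjusted p = 0.00276) for the 3p arm (61.9% GC).

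In miR-664 the arms stood the other way round, the 5p arm (57.1% GC) at -2.69 and the 3p arm (40.9% GC) at 3.35, though the 3p arm had only 34 reads in the 12 libraries. miR-410 had 20451 reads on its 3p arm and 18 on its 5p arm, whose log2 difference was -2.34. miR-361 had the largest ratio difference of all (5.43, SE 0.59, adjusted p = 2.2e-05) on 379 and 85 reads, with 45.5 and 48% GC in its arms, so that GC content hardly separated them. Over the 81 hairpins with both sequences (86.2%), the difference in the log2 arm ratio and the difference in GC between the arms had a Pearson correlation of -0.53. Among the 45 called hairpins with both sequences, the arm with lower GC was relatively higher with the kit in 33, the arm with higher GC in 9, and the arms had equal GC in 3. The 9 include miR-342 (50% GC in the 5p and 52.2% in the 3p arm, ratio difference -2.27), whose arms were called in opposite directions. They also include miR-300 (36.4 and 50%, -2.65) and miR-369 (45.5 and 23.8%, 1.25). Over all 76 hairpins with both sequences and unequal GC, called or not, it was the arm with lower GC in 55. The called hairpins thus lay near the background.

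**Figure D4:**
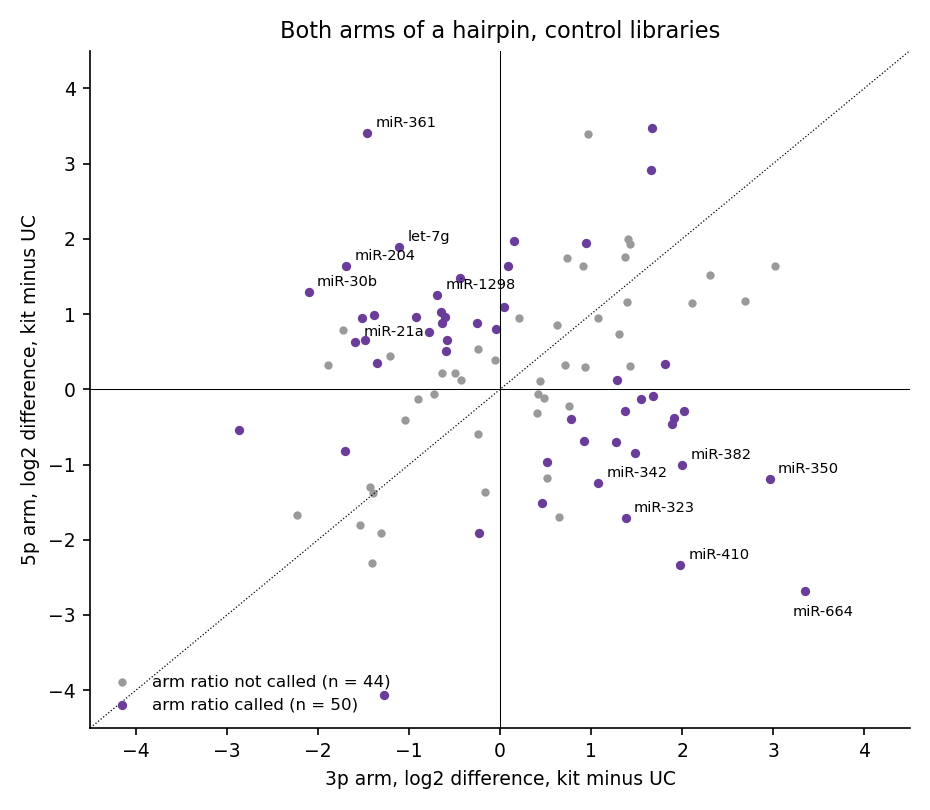
Log2 difference (kit minus UC) of the 5p arm against that of the 3p arm for 94 hairpins. Purple points are the 50 hairpins whose arm ratio differed and grey points the other 44, the dotted line marks equal differences of both arms, and names mark the 12 hairpins with arms called in opposite directions, such as miR-664 and miR-361.

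Cell-type lists were described by how many members passed the test, against the 24.9% and 23.4% of all tested miRNAs called higher with the kit and with UC. In such pooled fractions, fewer vesicles from a cell type and less RNA per vesicle cannot be told apart. The endothelial list leaned to the kit: 6 of 8 tested members were higher with the kit and 0 with UC, with a median log2 difference of 1.33. Its members took 0.537 to 0.686% of UC and 1.14 to 1.55% of kit reads, with no overlap. The largest part of these reads was miR-221-3p, with 17397 control reads against 3521 and 1049 for the 5p and 3p arms of miR-126a. miR-221-3p was called higher with the kit (0.73) but overlapped, at 3907 to 6967 CPM in UC and 5913 to 10850 CPM in kit controls. The share of the list thus describes mainly miR-221-3p. miR-126a-3p, the arm that keeps vessels intact by damping inhibitors of growth factor signalling, lay between 89.7 and 258 CPM (median 189) in UC and between 499.6 and 646 CPM (median 553) in kit controls (1.67, SE 0.25, adjusted p = 3.85e-07). miR-222-3p (0.97, SE 0.20, adjusted p = 6.67e-05) and miR-221-5p (1.74, SE 0.38, adjusted p = 0.000181) rose as well. The 6 calls include miR-222-5p (3.39), which had 36 reads in the 12 libraries. It lay at 0 to 7.58 CPM in UC and 0 to 31.4 CPM in kit controls and met the filter mainly through the kit libraries. Scaling to the reference miRNAs left 4 of the 8 called, miR-222-3p no longer among them.

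Of the mural and mesenchymal list, 2 of 4 tested members were higher with the kit and 0 with UC, with a median of 1.75. miR-143-3p was the only abundant member, at 10980 to 17530 CPM (median 12620) in UC and 11660 to 23400 CPM (median 15900) in kit controls, and did not pass the test (0.31, SE 0.19, adjusted p = 0.163). It was called higher with the kit in the fit of the 2 week libraries alone (0.74, adjusted p = 0.0193) and in that of all 24 libraries (0.58, adjusted p = 0.00382; both edgeR). miR-145a-5p, made from the same transcript, had 2 reads in the 6 UC and 34 in the 6 kit libraries, and miR-145a-3p 4 and 68 (adjusted p = 0.00892 and 0.00296). In the erythroid list, 2 of 3 tested members were higher with the kit, with a median of 2.91. miR-451a had 1 UC and 58 kit reads and miR-144-3p 2 and 50, in mice that had been perfused. Both were called higher with the kit by edgeR (adjusted p = 0.00292 and 0.00968) but not by limma-voom, their libraries overlapped at 0, and miR-144-3p lost the call without Kit 2 w replicate 2 (log2 difference 1.66, adjusted p = 0.142). With so few UC reads, miR-451a, miR-144-3p and both arms of miR-145a met the filter mainly through the kit libraries. The calls and medians of the erythroid and mural lists lean on that. As shares of reads both lists overlapped. The erythroid list took 0.0408 to 0.073% of UC and 0.0442 to 0.114% of kit reads, and the mural list 0.855 to 1.76% and 1.21 to 2.12%. miR-486b-5p, at medians of 511 and 660 CPM, did not pass (0.38, SE 0.23, adjusted p = 0.151), and 84.4% of its reads had altered ends.

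The astrocyte-associated list, whose miR-23, miR-26 and miR-29 families are also made by other cells, was called higher with the kit in 7 of 10 members and higher with UC in 0, with a median of 1.51. miR-26a-5p ranged from 8930 to 21660 CPM (median 14330) in UC and from 38080 to 52520 CPM (median 42680) in kit controls. miR-29a-3p went from a median of 1431 CPM (1027 to 1539) to 3350 CPM (2384 to 4083; 1.29, SE 0.20, adjusted p = 6.95e-07), and miR-29c-3p and miR-23b-3p differed by 1.81 and 2.08. All 7 calls held under reference scaling. The 3 members not called were the 5p arms of the miR-29 family, at 0.04 to 0.34. The list's median GC content was 40.9%.

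Oligodendrocyte miRNAs leaned the other way, with 3 of 5 members higher with UC and 0 with the kit and a median of -0.59. The list took 0.654 to 1.02% of UC and 0.218 to 0.265% of kit reads, mostly through miR-219a-2-3p. Its sister arm miR-219a-5p, with 38.1% GC, ranged from 135 to 342.5 CPM (median 249) in UC and 71.5 to 138 CPM (median 112) in kit controls (-1.19, SE 0.28, adjusted p = 0.000477). miR-338-5p differed by -0.59 (SE 0.22, adjusted p = 0.022), a call lost without UC 2 w replicate 1 (-0.53, adjusted p = 0.0551) or Kit 2 w replicate 2 (-0.51, adjusted p = 0.0691), and miR-338-3p by -0.24 (SE 0.20, adjusted p = 0.329).

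Neuronal miRNAs were called in both directions. Of 25 tested members, 12 were higher with the kit and 3 with UC, with a median of 0.73, and the list took 3.85 to 5.29% of UC and 5.4 to 8.68% of kit reads. Among the 12, miR-7a-1-3p lay at 0 to 10.04 CPM in UC and 6.92 to 53.65 CPM in kit controls. miR-138-2-3p lay at 0 to 7.3 and 13.08 to 20.9 CPM. Both met the filter through the kit libraries, and the kit count includes them. The difference of the mean shares, 2.27 percentage points, was 0.575 with the 3 most abundant miRNAs left out of the total. miR-218-5p, a motor and hippocampal neuron miRNA hosted by the Slit2 and Slit3 introns, lay between 408 and 489 CPM (median 459) in UC and 915 and 1737 CPM (median 1331) in kit controls (1.51, SE 0.21, adjusted p = 1.84e-07). miR-153-3p, which targets synaptic vesicle proteins, went from a median of 313 to 961 CPM (1.54, SE 0.24, adjusted p = 7.1e-07). Against these, miR-129-5p stood at 3043 to 6451 CPM (median 4579) in UC and 1013 to 2144 CPM (median 1474) in kit controls (-1.58, SE 0.22, adjusted p = 1.62e-07), and miR-124-5p at medians of 208 and 54 CPM (-1.90, SE 0.30, adjusted p = 9.84e-07). The guide arm miR-124-3p, the most specific neuronal marker, did not pass the test (-0.24). The sequences of the first 3 are shown because they are neuronal and moved in opposite directions.

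miR-218-5p: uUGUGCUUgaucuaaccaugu
miR-153-3p: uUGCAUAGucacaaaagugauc
miR-129-5p: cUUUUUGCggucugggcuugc

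miR-218-5p and miR-153-3p held 38.1 and 36.4% GC and miR-129-5p 57.1%. Under reference scaling, 8 neuronal members stayed higher with the kit and 4 were higher with UC, miR-9-5p no longer called.

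**Figure D5:**
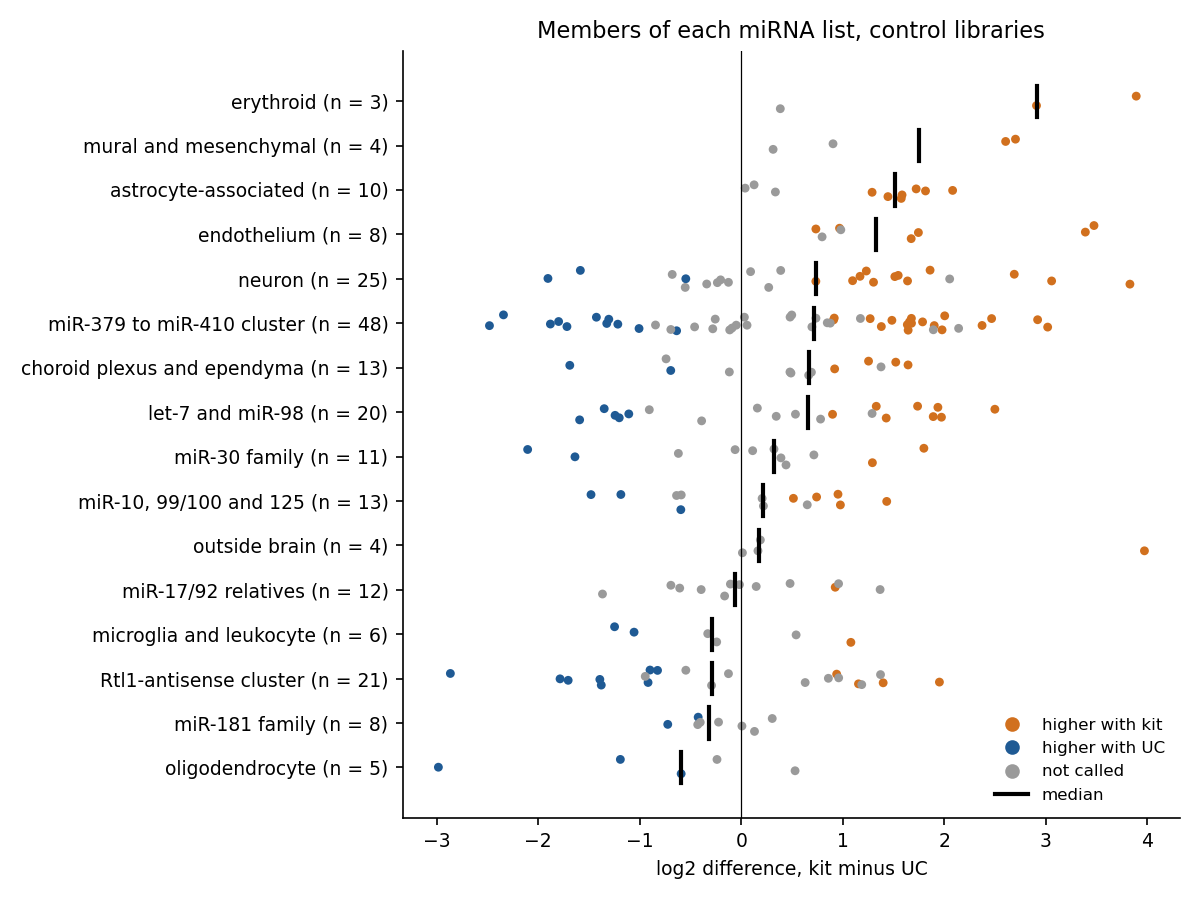
Log2 difference (kit minus UC) of every tested member of each miRNA list. Orange marks members called higher with the kit, blue higher with UC, grey not called, the black bar is the median, and n gives the members tested. Endothelial, astrocyte-associated and erythroid medians lie at 1.33, 1.51 and 2.91 and the oligodendrocyte median at -0.59. The erythroid median rests on 3 members, of which miR-451a and miR-144-3p met the filter mainly through kit libraries.

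Microglial and leukocyte miRNAs were split, with 1 of 6 higher with the kit and 2 with UC (median -0.29). miR-146a-5p, a brake on innate immune signalling, was higher with UC, at 2121 to 2570 CPM (median 2340) against 567 to 1514 CPM (median 1265; -1.06, SE 0.22, adjusted p = 0.000109), although its GC content is 40.9%. The arms of miR-342 went in opposite directions (5p -1.25, adjusted p = 0.000122; 3p 1.08, adjusted p = 0.00261), and under reference scaling 0 members were called higher with the kit and 3 higher with UC. miR-142a-5p and miR-142a-3p, which mark blood-derived cells, were low, at medians of 40.1 and 8.8 CPM in UC and 60.3 and 7.99 CPM in kit controls, and did not pass. Of the 13 tested choroid plexus and ependyma miRNAs, 4 were higher with the kit and 2 with UC (median 0.66). miR-204-5p ranged from 318 to 987 CPM (median 543) in UC and 1121 to 2527 CPM (median 1649) in kit controls, and miR-34c-5p, of ciliated cells, differed by 0.92 (SE 0.21, adjusted p = 0.000386). Under reference scaling 1 member was called higher with the kit and 2 higher with UC. Of 4 tested miRNAs of tissues outside the brain, miR-194-5p was called higher with the kit (adjusted p = 0.00923) and 0 higher with UC. DESeq2 did not call it, and neither did edgeR over all 24 libraries (1.31, adjusted p = 0.1215) or within 24 h or 2 weeks alone. It had reads in 6 of 6 kit and 0 of 6 UC libraries, so it met the filter through the kit libraries only. There were 15 reads in 1628084 kit reads (9.21 CPM) and 0 in 748693 UC reads, which allows up to 4.01 CPM. The ratio of these 2 values, 2.3, leaves out the counting error of the 15 kit reads. The median of the list was 0.18, and -0.28 under reference scaling. Its hepatic and intestinal partner miR-192-5p did not pass (0.19, SE 0.22, adjusted p = 0.503).

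miRNAs from 1 imprinted transcription unit went both ways. In the Rtl1-antisense cluster, 4 of 21 tested members were higher with the kit and 8 with UC, and in the miR-379 to miR-410 cluster 18 of 48 and 11 of 48 were. The 18 include miR-411-3p, at 0 to 16.31 CPM in UC and 17.88 to 36.88 CPM in kit controls, which met the filter through the kit libraries. miR-127-3p (59.1% GC) and miR-136-5p (36.4% GC, chr12:109595331-109595352) both lie antisense to Rtl1 within 1 locus. miR-127-3p fell from a median of 301700 CPM in UC to 104500 CPM in kit controls (log2 difference -1.39, SE 0.19, adjusted p = 1.56e-07). miR-136-5p went from 343 CPM (226.5 to 489) to 1475 CPM (823 to 2073), a log2 difference of 1.95 (SE 0.24, adjusted p = 7.73e-09). Neither overlapped. miR-127-5p moved with its sister arm (-1.38) and miR-434-3p with miR-136-5p (1.40, SE 0.25, adjusted p = 1.33e-05).

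miR-127-3p: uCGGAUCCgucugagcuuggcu
miR-136-5p: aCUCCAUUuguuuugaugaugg

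Among broader families, the let-7 and miR-98 list had 8 of 20 members higher with the kit and 5 with UC, and took 3.48 to 7.9% of UC and 12.1 to 15.7% of kit reads. All 5 UC-favoured members were 3p arms or the rare let-7k (-1.20). The miR-181 family had 0 of 8 higher with the kit and 2 higher with UC, miR-181a-1-3p (-0.72, SE 0.21, adjusted p = 0.00357) and miR-181b-5p. The latter's -0.42 (SE 0.18, adjusted p = 0.0436) lost its call without 5 of the 12 libraries (-0.44 to -0.33, adjusted p = 0.0502 to 0.114), namely UC 24 h replicate 1, UC 2 w replicates 1 and 2, Kit 24 h replicate 3 and Kit 2 w replicate 3. In the miR-30 family the calls split by arm, 2 of 11 higher with the kit, both 5p (miR-30c-5p 1.80, miR-30b-5p 1.29), and 2 higher with UC, both 3p (miR-30c-1-3p -1.64, miR-30b-3p -2.10). The family of miR-10, miR-99, miR-100 and miR-125 had 5 of 13 higher with the kit, led by miR-10b-5p (1.43) and miR-99a-5p (0.95), and 3 higher with UC, led by miR-125a-3p (-1.48) and miR-125b-1-3p (-1.19). Of 12 relatives of miR-17 and miR-92, miR-92b-3p alone passed. Under reference scaling the medians of the miR-30 and miR-10 lists turned from 0.32 and 0.22 to -0.19 and -0.28, with 1 and 3 (miR-30) and 0 and 4 (miR-10 to miR-125) members called higher with the kit and with UC. The brain miRNA miR-107-3p, higher with the kit by 0.64 (SE 0.20, adjusted p = 0.00852), was not called under that scaling, and neither were miR-21a-5p, miR-30b-5p and miR-99a-5p.

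Adenosine deaminases turn A into inosine, which is read as G, in some miRNAs of the brain. Reads listed with an internal A-to-G change made up 0.955 to 1.21% of a UC library (median 1.12%) and 0.527 to 0.603% of a kit library (median 0.562%). Every UC library lay above every kit library (difference of means -0.53 percentage points, exact permutation test within time, two-sided, p = 0.005, adjusted p = 0.04 over 8 classes of change). As a mean over the same 52 miRNAs in every library, a measure added after seeing the data, the shares were 1.55 to 1.79% and 1.26 to 1.37%, again without overlap. Sites with at least 10 reads in every library and at least 5% editing on average numbered 4. At position 16 of miR-378a-3p, 62.1% ± 4.89 (SD, n = 6) of UC and 45.7% ± 2.68 (SD, n = 6) of kit reads were edited, and at position 7 of miR-3099-3p, A7G, 92.2% ± 1.44 and 83% ± 3.81 (each exact permutation p = 0.005, adjusted p = 0.01 over 4 sites, n = 6 per method). Neither site overlapped between preparations. The miR-378c site A16G was at 59.1% ± 6.95 and 49.6% ± 7.87 (exact p = 0.04, adjusted p = 0.0533) and the miR-411-5p site A5G at 20.6% ± 2.53 and 18.2% ± 4.2 (exact p = 0.29, adjusted p = 0.29), both overlapping. miR-378a-3p was itself higher with UC, at medians of 12540 and 3668 CPM (log2 difference -1.72, SE 0.19, adjusted p = 5.56e-10). The part of miR-378a-3p and miR-3099-3p in the library-wide share and in the mean over 52 miRNAs was not tested. Neither value therefore shows a shift across miRNAs in general. The miR-3099-3p site lies within the seed, and 68.2% of its reads had altered ends.

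miR-3099-3p: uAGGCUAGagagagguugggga

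Reads with any changed or added end base made up 9.65 to 14.2% of UC and 9.87 to 13.1% of kit libraries (exact p = 0.37). Added U at the 3′ end was at 2.72 to 3.64% and 2.86 to 3.4% (exact p = 0.265), and added A, the product of cytoplasmic tailing enzymes, at 2.17 to 2.73% and 2.45 to 3.83% (exact p = 0.05, adjusted p = 0.1). Added G passed (0.213 to 0.415% against 0.287 to 0.673%, exact p = 0.01, adjusted p = 0.04), but its difference of means of 0.13 percentage points became -0.0019 as a mean over the same 52 miRNAs. Libraries overlapped in all 7 classes of end change.

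The method differences recurred at both times. At 24 h, 155 of 466 miRNAs (33.3%; 197 or 42.3% at an unadjusted p under 0.05) were called, 83 higher with the kit and 72 with UC, and at 2 weeks 152 (32.6%), 83 and 69. The same 113 miRNAs were called at both times, all in the same direction, which is 72.9% of the 24 h and 74.3% of the 2 week calls. The difference between the times was called in 0 miRNAs by edgeR (15, or 3.22%, at an unadjusted p under 0.05) and 0 by limma-voom (18 unadjusted). The lowest p was that of miR-361-5p (adjusted p = 0.627), followed by miR-199b-3p (2.61, SE 1.04) and miR-30c-5p (-1.28, SE 0.52), both with an adjusted p of 0.961, as 2 week minus 24 h difference.

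The KA libraries share no sample with the controls. There, 205 of 476 tested miRNAs (43.1%) were called, 114 (23.9%) higher with the kit and 91 (19.1%) with UC. Of the 225 control calls 221 were tested in KA libraries, where 168 were called in the same direction and 0 in the opposite one, while 49 uncalled ones had the same sign and 4 the other sign. These 168 were 74.7% of the control and 82% of the KA calls. miR-126a-5p differed by 3.16, miR-219a-2-3p by -3.11, miR-296-3p by -3.46 and let-7f-5p by 2.01 in KA libraries, and the correlation of the log2 difference with GC content was -0.51 over 390 miRNAs. miR-204-5p and miR-34c-5p of the choroid plexus list, at 0.61 (adjusted p = 0.18) and 0.26 (adjusted p = 0.41), did not pass there. The difference between control and KA libraries was called in 0 of 603 miRNAs by edgeR (36, or 5.97%, unadjusted) and 0 by limma-voom (35 unadjusted), with the lowest p in miR-10b-5p (1.28, SE 0.47), miR-361-5p (-2.66, SE 0.97) and miR-449a-5p (4.06, on 22 control reads), each at an adjusted p of 0.761.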

How the data were processed

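Small RNA libraries were made from EEFs with TruSeq Small RNA reagents at reduced volume and sequenced on a MiSeq. The authors trimmed the reads and mapped them to miRBase version 21 hairpins with Chimira, and deposited whole-number read counts per miRNA name and per modification for each library. The treatment of reads matching several miRNAs is not given in the sources used here. Groups came from the sample titles. From the deposited counts, miRNAs with at least 1 read in 6 of the 12 control libraries were tested with edgeR 4.0.16 (R 4.3.3) by the quasi-likelihood test with TMM factors (0.778 to 1.17), method plus time in the design and Benjamini-Hochberg adjustment over all tested. The common biological coefficient of variation was 0.289. Differences are log2, kit minus UC, and CPM uses TMM-scaled totals. SE was derived from the quasi-likelihood F. Differences between times and treatments were interaction terms of group designs. Arm ratios, log2((5p + 0.5)/(3p + 0.5)) of hairpins with at least 10 reads per library, were fitted with limma 3.58.1. Shares per library were compared by exact permutation within time (scipy 1.17.1). Replicates were separate pools of hippocampi, and p-values measure the spread between these pools. Bounds from counts of 0 (3 reads over the group) cover counting error only. The members and lists were chosen with earlier results of these data known. miRNAs named in the text were, by rule, the 12 largest non-overlapping calls in each direction with at least 10 reads per library, the 10 most abundant per method, up to 4 of lowest p per list (all where up to 4 were tested), 6 miRNAs the study singled out, the 5 largest arm ratios in each direction and the 3 lowest p per interaction. In addition, miR-124-3p, both arms of miR-142a, miR-122-5p, miR-221-3p, let-7a-5p, let-7b-5p, let-7e-5p, let-7k, the 4 miRNAs with A-to-G sites and the 3p arms of let-7g, miR-361 and miR-664 were added after their values were seen. Sequences came from RefSeq (GRCm38.p6) and neighbouring genes from GENCODE vM21 of the same build. DESeq2 1.42.0, limma-voom and other scalings, filters and subsets were alternatives. Tests were checked on simulated counts.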

Additional observations from a re-analysis of the deposited data

Results flagged for a closer look

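Among 138 sets of 6 libraries examined, 11 (7.97%) held 1 library far from the other 5 (Dixon's test at its 95% level). Chance gives about 1 in 20. In UC controls, miR-1195 was at 7.58 CPM in UC 2 w replicate 2 (others 29.2 to 41.6), miR-598-3p at 181 CPM in UC 2 w replicate 3 (31.2 to 73.4), miR-3085-3p at 1880 CPM in UC 2 w replicate 2 (734 to 1087) and miR-1224-5p at 687 CPM in UC 24 h replicate 1 (220 to 281). In kit controls, miR-598-3p was at 936 CPM (301 to 469), miR-760-3p at 304 CPM (163 to 196), added 3′ A at 3.83% of reads (2.45 to 2.87%) and the list of tissues outside the brain at 0.176% of reads (0.072 to 0.11%) in Kit 24 h replicate 2, which had the fewest reads of the kit controls. miR-219a-2-3p was at 664 CPM in Kit 24 h replicate 3 (873.5 to 986), and Kit 2 w replicate 3 held miR-6236 at 4990 CPM (2672 to 3062) and the list of miR-10, miR-99, miR-100 and miR-125 at 1.88% of reads (1.31 to 1.52%).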

How the results depend on the processing

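The number of miRNAs called between preparations in controls, 225, was 171 to 320 under the other tests, scalings, filters and subsets and 205 to 227 with any 1 library left out; 217 of the 225 were called the same way by DESeq2 and 217 by limma-voom. Scaling to the 2 reference miRNAs kept 176 and changed the split from 116 and 109 to 67 and 143. The fits of 24 h and 2 week libraries alone called 153 and 155. The count at 2 weeks ranged from 109 to 156 with a library left out, at 24 h from 128 to 157, in KA libraries from 184 to 217 and for arm ratios from 43 to 50. Replicate numbers did not pair the samples (correlation of same-numbered deviations -0.07 to 0.13; at 2 weeks each UC sample correlated best with its own number, at 24 h none did). With the replicate block the counts were 226 in controls, 156 at 24 h, 167 at 2 weeks, 220 in KA libraries, 50 for arm ratios and 0 for both interactions; block or pairing moved the share of 3′ ends with 2 or more bases to -1.09 (p = 0.0312, exact sign flips of 6 pairs) and of 5′ ends to -0.22 (p = 0.0312), neither called without it. Some alternative called 10 miRNAs of the naming rule that were not called in the 12 libraries by edgeR, among them miR-30a-5p under 8 settings (0.30 to 0.50, adjusted p = 0.0179 to 0.0436), let-7i-5p under 5 (0.29 to 0.44), miR-199b-3p under 3 (1.30 to 2.59), miR-143-3p under 2 (0.58 and 0.74) and miR-338-3p under 1 (-0.44). Among the miRNAs put through this check, none reversed a call under any alternative. The miRNAs added after their values were seen, and arms named only for their arm ratio, were not part of it.

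Shares in percentage points, kit minus UC, were tested by exact permutation. Without names with altered ends, 3′ C was -0.0332 (exact p = 0.01) and 5′ ends -0.0987 (exact p = 0.025). Over the same miRNAs, a setting added after seeing the data, 3′ G was -0.0019 (exact p = 0.95), 3′ C -0.127 (exact p = 0.02) and 5′ ends -0.0932 (exact p = 0.045). With 1 library left out, 3′ A ranged from 0.236 to 0.513, 3′ G from 0.0784 to 0.155, 3′ C from -0.0321 to -0.0206 and 5′ ends from -0.274 to -0.148. With the 3 most abundant miRNAs out of the total, the 3 and the 20 most abundant of the remaining names differed by 5.83 and 8.59, opposite in sign to the values over all names. The lists then differed by 0.575 (neuron), -1.67 (oligodendrocyte), 4.52 (astrocyte-associated), -0.789 (microglia and leukocyte), -0.29 (mural), 0.00244 (erythroid), -0.0364 (outside brain), 1.73 (Rtl1-antisense), 0.539 (miR-379 to miR-410), 9.57 (let-7), -2.51 (miR-181), -0.76 (miR-30), -0.764 (miR-10 to miR-125) and -0.0411 (miR-17/92). UC depth limits rare names: 1 read is up to 11.7 CPM.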
